A study of Mus musculus with 12 samples.

Results

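The question here is which islet genes answered the loss of SHP differently on a western diet and on chow, and which of the 4 combinations of genotype and diet carried that difference. All 12 arrays of the series enter. They form 4 groups of 3 arrays, which were SHPKO on western diet, WT on western diet, SHPKO on chow and WT on chow. Every mouse was a 10-month-old C57Bl/6Hsd male. The western diet began at 4 months of age and lasted 6 months, over the same span that the other mice ate chow. SHPKO mice are SHP-/-, with no tissue-specific driver named, and WT mice carry SHP. Islets were isolated after perfusion of the pancreas with collagenase, RNA of 5 to 9 mice was pooled per group in equal amounts, and triplicate arrays were run per group. No label ties the triplicates to separate pools, so they are treated as repeat measurements of 1 pool. The p-values then reflect array-to-array variation and say nothing of the variation among mice, and groups are compared as pools. The hour of collection is not recorded in the labels.

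SHP, encoded by Nr0b2, is a nuclear receptor without a DNA-binding domain that represses transcription by other nuclear receptors and is best known from bile acid and lipid metabolism in the liver. Islets are clusters of hormone-secreting cells, in which beta cells make insulin, alpha cells glucagon, delta cells somatostatin and PP cells pancreatic polypeptide. An isolated preparation also carries some exocrine tissue, vessels, blood and immune cells. The islet identity of the arrays was plain from insulin (Ins2), glucagon (Gcg) and somatostatin (Sst), which lay near the top of the signal range on all 12 arrays. The probe for Nr0b2 itself stayed undetected throughout, with detection p-values of 0.299 to 0.761 over the 12 arrays, and therefore checks no genotype label. Its place relative to the deletion is not stated in the labels.

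The interaction of a gene is the genotype difference (SHPKO minus WT, log2 intensity) measured on western diet, less the same genotype difference measured on chow. A positive value means that the SHPKO level, relative to WT, was higher on western diet than on chow. Genes detected on all 3 arrays of at least 1 group were tested, 8875 in all, and a gene was called at an adjusted p below 0.05 (limma, Benjamini-Hochberg over all genes tested) with an interaction of at least 1.5-fold. By this rule 184 genes were called, 2.07% of those tested, of which 132 were positive (1.49%) and 52 negative (0.586%). At an unadjusted p below 0.05 there were 1126 genes. The interaction of the middle gene was 0.00, and from the 5th to the 95th percentile of genes it ran from -0.42 to 0.49. For comparison, the simple difference between genotypes was called for 281 genes on western diet (3.17%) and for 187 on chow (2.11%), comparisons that share no arrays. Among the 184 called genes the genotype difference had opposite signs on the 2 diets in 125, the same sign but a larger size on western diet in 41, and the same sign but a larger size on chow in 18. These signs count differences of any size, and a call for the interaction itself favours opposite signs. Opposite genotype differences that were both called were found in 8 genes.

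The called genes were then sorted by the group whose mean stood apart. A group stands apart when the distance of its mean to the nearest other mean is larger than the whole range of the other 3 means, a description that carries no test of its own. In 73 called genes SHPKO on western diet stood above the other groups, and in 6 below. WT on western diet stood above in 4 and below in 14, SHPKO on chow above in 5 and below in 2, and WT on chow above in 12 and below in 17. In the remaining 51 called genes no single group stood apart. Among all genes tested, by comparison, SHPKO on western diet stood above in 9.72% and below in 7.04%, WT on western diet above in 4.63% and below in 5.59%, SHPKO on chow above in 4.25% and below in 5.07%, and WT on chow above in 6.06% and below in 9.83%, while 47.8% had no group apart. In every called gene of each class but WT on chow, the 3 arrays of the group that stood apart lay outside the values of the other 9. For WT on chow this held in 11 of the 12 high genes and 16 of the 17 low genes. Single arrays moved some of these counts. The 29 genes with WT on chow apart were 19 without array 1 of SHPKO on western diet and 18 without array 1 of SHPKO on chow, and without array 2 of SHPKO on chow 11 genes had WT on western diet apart and 11 had SHPKO on chow apart.

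**Figure D1:**
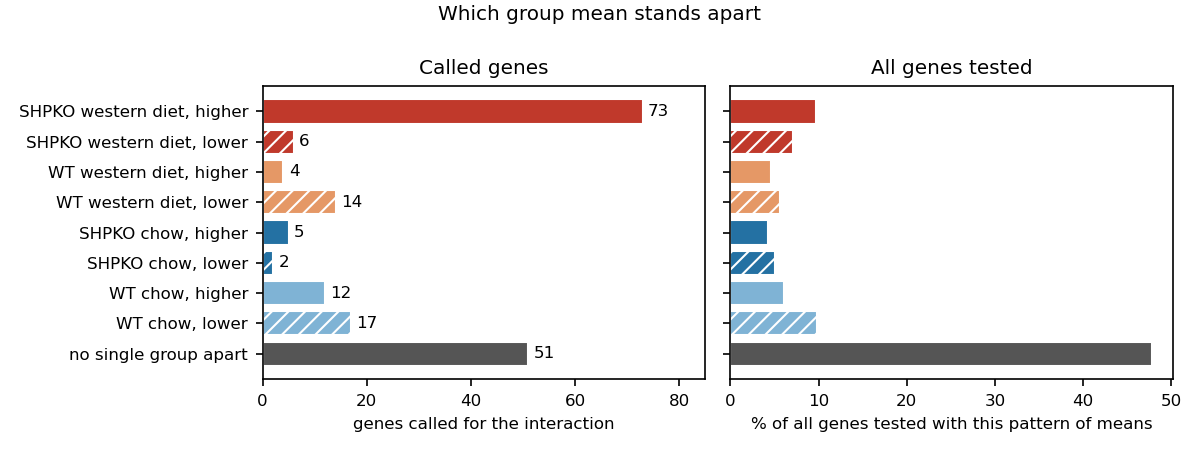
Left, number of genes called for the interaction by the group whose mean stands apart from the other 3, above (plain bars) or below (hatched bars); right, the share of all 8875 genes tested that show the same order of means, in percent. SHPKO on western diet above the rest holds 73 of the 184 called genes, and no single group stands apart in 51.

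A share of the large class was built in by the filter. Of the 73 genes highest in SHPKO on western diet, 51 were detected on all 3 arrays of that group only, so they could enter the table only by being high there, and their number is a description. Among genes that passed through that group alone, 26.0% were called (53 of 204), against 1.17% (91 of 7805) of the genes detected on all arrays of all 4 groups. When only genes detected on all 12 arrays were tested, 80 were called, 61.2% of them positive against 71.7% of the 184, and 17 of them had SHPKO on western diet apart. Where no array of a group detected a gene, the level of that group is only a bound. For such genes the interaction is also given with the undetected groups at the lowest detected signal of each array, called the floored interaction, which carries no test. Of the 184 called genes 74 had an undetected group, and the floored interaction reached 1.5-fold in the called direction in 55 of these and was smaller in 19, with the opposite sign in 1, Sucnr1. The heat map of called genes shows the classes by array.

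**Figure D2:**
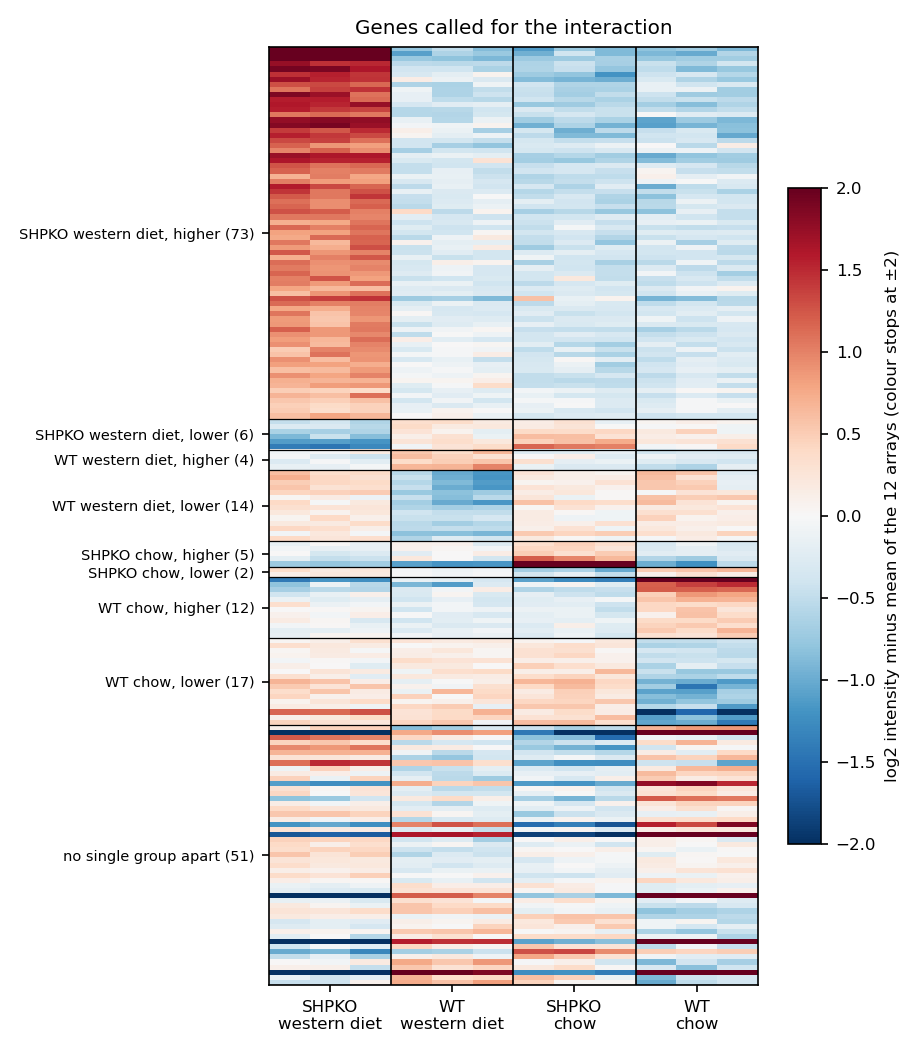
Each row is 1 of the 184 called genes and each column 1 array, grouped as SHPKO western diet, WT western diet, SHPKO chow and WT chow; colour is the log2 intensity minus the mean of the 12 arrays. The 73 rows at the top are high on the 3 arrays of SHPKO on western diet, and the arrays of a group resemble each other in each class.

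The class that stood highest in SHPKO on western diet was led by genes of lymphocytes, above all B cells. Fcmr, the receptor for the constant part of IgM on B cells, read 8.35, 8.35 and 8.44 for SHPKO on western diet, 5.17, 5.42 and 5.07 for WT on western diet, 4.81, 5.20 and 5.06 for SHPKO on chow and 5.14, 5.23 and 5.05 for WT on chow (log2 intensity per array). The 3 arrays of SHPKO on western diet stood well clear of the other 9, of which 1 array of WT on western diet alone reached detection. Fcmr was at least 8.22-fold above each other group, and its interaction was 3.27 ± 0.17 (SE, adjusted p = 3.1e-07). Cd79b, the signalling chain of the B cell receptor, read 7.79, 7.96 and 7.69 for SHPKO on western diet, 4.34, 4.80 and 4.68 for WT on western diet, 4.46, 5.02 and 4.54 for SHPKO on chow and 4.53, 4.41 and 4.83 for WT on chow. It was undetected on the 9 arrays outside SHPKO on western diet, which makes the difference at least 5.57-fold and the floored interaction 2.62. Mzb1, an endoplasmic reticulum protein of antibody-secreting B cells, was 4.17-fold above WT on western diet, the nearest group, at 7.80, 7.87 and 7.82 in SHPKO on western diet against 5.90, 5.48 and 5.93 in WT on western diet. On chow Mzb1 was low in both genotypes, at 5.35, 5.53 and 5.42 in SHPKO and 5.00, 5.32 and 5.16 in WT. The proton channel Hvcn1, which lymphocytes and phagocytes use, had an interaction of 2.17 ± 0.18 on 1 probe and 2.01 on a second.

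Of 17 B cell markers tested, 16 had a positive called interaction and 0 a negative one, against 1.49% and 0.586% of all genes. Of the 17, 13 had passed the filter through SHPKO on western diet alone, a route by which 26.0% of genes were called. The median interaction of the 17 was 1.68, or 0.96 floored. The chemokine receptor Ccr6 (2.20 ± 0.15), the inhibitory coreceptor Cd22 (1.89 ± 0.26), the antigen-presentation subunit H2-Ob (1.83 ± 0.13) and the kinase Blk (1.68 ± 0.13) were undetected outside SHPKO on western diet, with floored interactions of 1.36, 1.39, 1.13 and 0.83 for Ccr6, Cd22, H2-Ob and Blk. Of 15 T cell and pan-leukocyte markers 9 were called positive and 0 negative, 8 of the 15 having passed through that group alone. Cd3d, part of the T cell receptor complex, had an interaction of 1.41 ± 0.17 (floored 0.86) and the adhesion receptor Cd2 one of 1.26 ± 0.17 (floored 0.45). The summed linear level of the B cell markers tested ranged over 4587 to 4889 for SHPKO on western diet, 2226 to 2610 for WT on western diet, 1689 to 1898 for SHPKO on chow and 1629 to 1853 for WT on chow. For the T cell list the sums were 6546 to 6631 for SHPKO on western diet, 4283 to 4520 for WT on western diet, 4170 to 4469 for SHPKO on chow and 3993 to 4181 for WT on chow. The increase was not seen in every defining marker, since the probes of Ms4a1, which encodes the B cell antigen CD20, of Cd4, of Cd8a and of Ptprc, the common leukocyte antigen CD45, were undetected on all 12 arrays. In bulk RNA of this kind, more cells of a type and more RNA per cell cannot be told apart.

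Genes detected in all 4 groups did not depend on 1 group to pass the detection filter. Of the 73 genes, 14 were detected in full in all 4 groups. As members of the 73 they were already chosen as highest in SHPKO on western diet, so that order is a description. Coro1a, an actin-binding protein of leukocytes, read 9.33, 9.23 and 9.22 for SHPKO on western diet, 7.41, 7.48 and 7.41 for WT on western diet, 6.95, 7.04 and 6.91 for SHPKO on chow and 6.60, 6.82 and 6.92 for WT on chow. The 3 arrays of SHPKO on western diet were 3.55-fold above WT on western diet, and WT on western diet lay above both chow groups, so the diet difference had the same sign in both genotypes and was larger in SHPKO. The interaction of Coro1a was 1.64 ± 0.13 (adjusted p = 1.5e-05), with 1.82 and 0.99 on its other 2 probes. Laptm5, a lysosomal membrane protein of blood cells, had a smaller interaction of 0.87 ± 0.13, and Arhgdib, a gene expressed mainly in blood cells, one of 1.68 ± 0.23. Lyz1 (a lysozyme, 0.90 ± 0.13) and Lgals3 (galectin-3, 1.18 ± 0.14) belonged here too.

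Of 27 macrophage and antigen presentation genes, 4 were called positive and 0 negative, against 1.49% and 0.586% of all genes, and 4 of the 27 had passed through SHPKO on western diet alone. Their median interaction was 0.33. Their summed level was 11400 to 12110 for SHPKO on western diet, 8470 to 9109 for WT on western diet, 6756 to 6973 for SHPKO on chow and 6630 to 7162 for WT on chow. H2-DMb2, which loads peptides onto MHC class II, had an interaction of 1.22 ± 0.22. Cd83, a marker of mature dendritic cells, had one of 1.23 ± 0.25 (floored 0.89), and this call ended when any of 6 single arrays was left out. Cxcl13, the chemokine that draws B cells into follicles, read 6.72, 6.82 and 6.89 for SHPKO on western diet, 4.73, 4.78 and 4.57 for WT on western diet, 6.03, 5.30 and 5.51 for SHPKO on chow and 4.51, 4.58 and 4.89 for WT on chow. It was thus above WT in SHPKO islets on both diets, by 2.12 on western diet and 0.95 on chow, and the interaction was 1.17 ± 0.23 (adjusted p = 0.017). WT was undetected on both diets, and with WT at the floor the differences were 1.497 and 0.27. With all genes on the B cell, T cell, lymph node and macrophage lists set aside, 51 called genes with SHPKO on western diet apart, in either direction, remained of 79. The lists do not hold every gene of leukocytes, so the 51 are not a class free of leukocyte genes. How far leukocyte RNA moves these remaining genes was not tested.

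Several genes outside these lists stood with them. Mup2, a major urinary protein secreted chiefly by the liver, read 7.36, 7.20 and 7.47 in SHPKO on western diet and was undetected on every other array, where it lay between 4.23 and 4.47. The difference was at least 4.01-fold and the interaction 3.01 ± 0.12 (adjusted p = 7.3e-08), or 2.15 floored, with 1.32 on a second probe. Mup genes are near-identical copies, so the probe may read several of them. Slpi, a secreted inhibitor of leukocyte proteases, read 7.30, 7.35 and 7.19 for SHPKO on western diet, 5.40, 5.37 and 5.53 for WT on western diet, 4.49, 4.84 and 4.51 for SHPKO on chow and 4.37, 4.52 and 4.62 for WT on chow. Slpi was undetected in both chow groups and detected on all arrays of both western diet groups, where SHPKO was above WT by 1.85. Its interaction was 1.74 ± 0.15 (adjusted p = 3.8e-05), or 1.96 floored, and with chow at the floor the diet difference was 2.06 in SHPKO and 0.10 in WT. The acute phase protease inhibitor Serpina3n was undetected outside SHPKO on western diet and had an interaction of 1.22 ± 0.15 (floored 0.74), a call lost without background correction.

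In 6 genes SHPKO on western diet stood below the other groups, among them a neuropeptide and 2 genes of the circadian clock. Vip, vasoactive intestinal peptide of pancreatic nerves, read 4.39, 4.32 and 4.49 for SHPKO on western diet, all undetected. It read 5.72, 6.05 and 6.15 for WT on western diet, 6.94, 6.83 and 6.79 for SHPKO on chow and 5.72, 5.81 and 6.18 for WT on chow. SHPKO was above WT on chow by 0.95 and below it on western diet, by -1.57 as measured and -0.70 with SHPKO at the floor. The interaction was -2.52 ± 0.19 (adjusted p = 1.0e-05), or -1.65 floored, and SHPKO on western diet was at least 1.55-fold below the nearest group. The WT groups overlapped. The other members were Dbp and Nr1d1, described with the clock genes, and Sult1c2, Car11 and Gng7, whose interactions lay between -0.87 and -0.78. Sult1c2, a sulfotransferase, lost its call when any of 10 single arrays was left out, Car11, a carbonic anhydrase-related protein, when any of 9 was, and Gng7, a G protein subunit, kept it in each of these. The call of Gng7 was lost, however, without background correction and at an offset of 50.

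**Figure D3:**
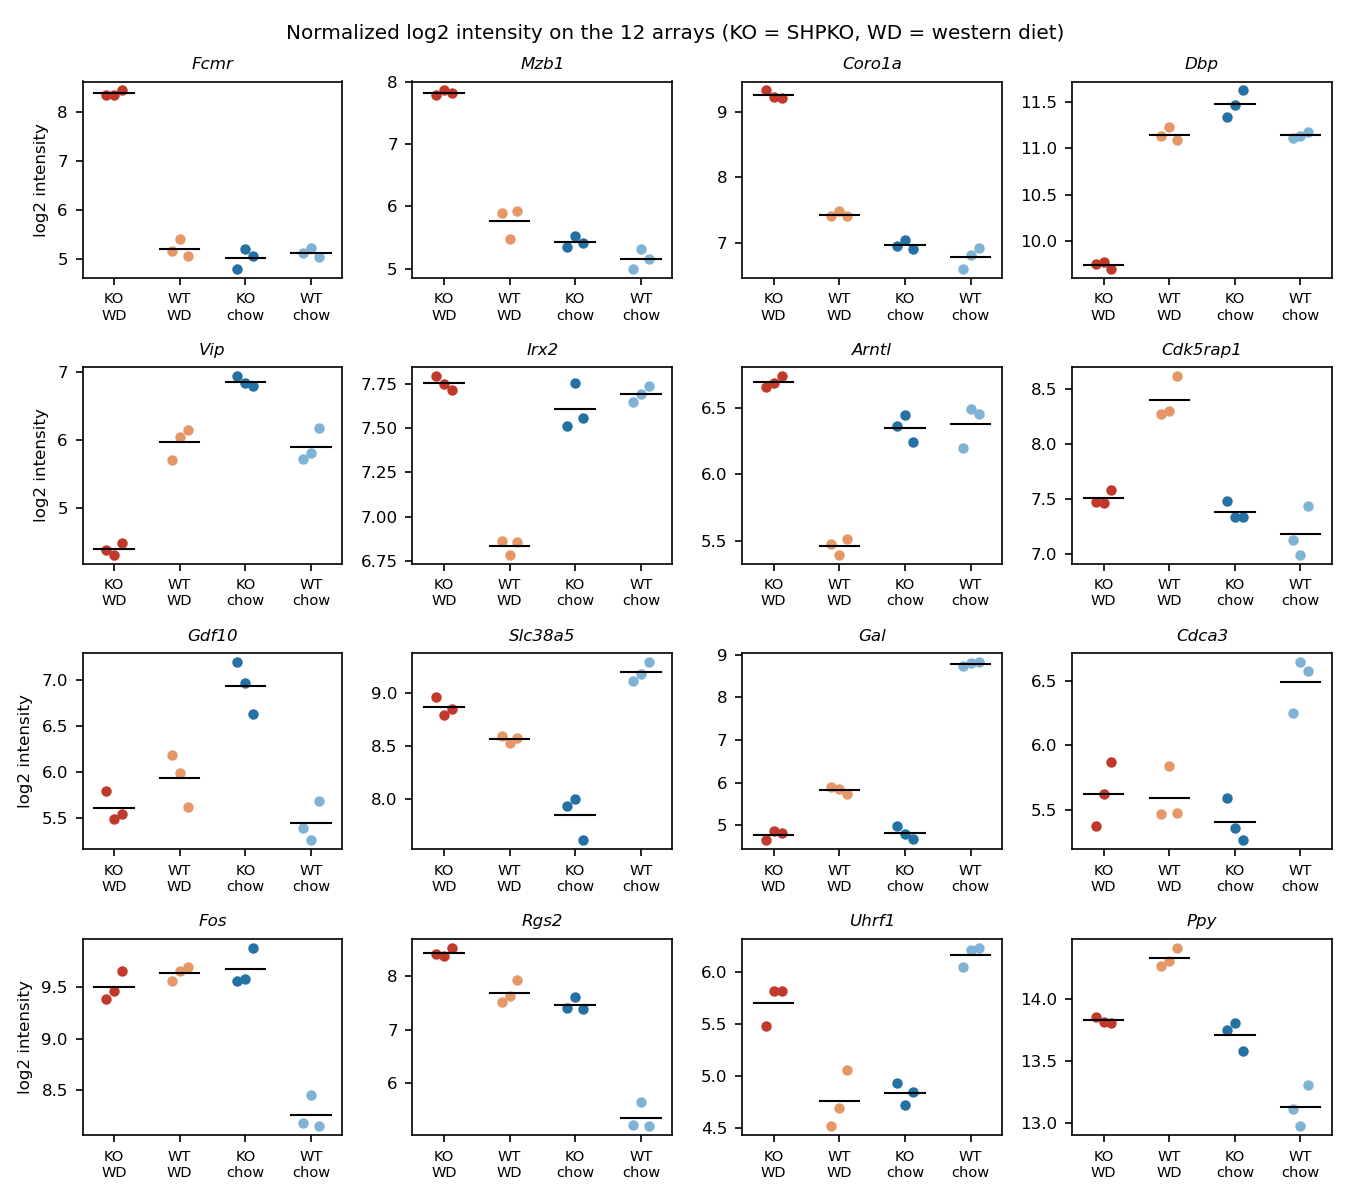
Normalized log2 intensity of 16 genes on each array (points), with the group mean as a bar; SHPKO western diet, WT western diet, SHPKO chow and WT chow from left to right, and a separate vertical scale in each panel. Fcmr, Mzb1 and Coro1a are high and Dbp and Vip low in SHPKO on western diet, Irx2 and Arntl are low and Cdk5rap1 is high in WT on western diet, Gdf10 is high and Slc38a5 low in SHPKO on chow, and Gal and Cdca3 are high and Fos and Rgs2 low in WT on chow, while Uhrf1 and Ppy have no single group apart.

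The circadian clock is a transcription loop in which BMAL1 (Arntl) and CLOCK bind E-boxes, CACGTG sequences, and switch on Per, Cry, Nr1d1, Dbp and Ciart, whose products feed back on the loop. Of 13 clock and clock output genes tested, 4 had a negative called interaction and 1 a positive one, against 0.586% and 1.49% of all genes, with a median of -0.70 against 0.00 over all genes. Dbp, an output transcription factor, read 9.76, 9.78 and 9.70 for SHPKO on western diet, 11.13, 11.23 and 11.09 for WT on western diet, 11.34, 11.47 and 11.62 for SHPKO on chow and 11.11, 11.13 and 11.18 for WT on chow. SHPKO on western diet was 2.63-fold below the nearest group, and the WT groups overlapped, giving an interaction of -1.74 ± 0.13 (adjusted p = 8.4e-06). Nr1d1, the repressor REV-ERB alpha, followed at 5.64, 6.09 and 5.69 for SHPKO on western diet, 6.66, 6.84 and 6.40 for WT on western diet, 7.16, 7.14 and 6.82 for SHPKO on chow and 6.69, 6.61 and 6.66 for WT on chow, with an interaction of -1.22 ± 0.20 (adjusted p = 0.0054). SHPKO on western diet was lowest and SHPKO on chow highest for Dbp and for Nr1d1.

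Arntl went the other way and through another group. It read 6.65, 6.68 and 6.74 for SHPKO on western diet, 5.48, 5.40 and 5.52 for WT on western diet, 6.37, 6.44 and 6.24 for SHPKO on chow and 6.20, 6.49 and 6.45 for WT on chow. WT on western diet was 1.85-fold below the nearest group and the chow groups overlapped, so the interaction of 1.26 ± 0.14 (adjusted p = 0.00017) rests on a low WT level on western diet. Ciart, a repressor in the same loop, had its lowest values in SHPKO on western diet (6.02, 6.34 and 5.86) and its highest in SHPKO on chow (7.29, 7.03 and 6.80), with 6.61, 6.71 and 6.43 in WT on western diet and 6.44, 6.30 and 6.28 in WT on chow. Its interaction of -1.21 ± 0.20 was matched by -1.22 on a second probe. Cry2 was lowest in WT on chow, with an interaction of -1.01 ± 0.23 (adjusted p = 0.042), and lost its call when any of 9 single arrays was left out. Per2 (-0.73 ± 0.18, adjusted p = 0.055), Nr1d2 (-0.70 ± 0.21, 0.13), Per1 (-0.51 ± 0.19, 0.26) and Tef (-0.88 ± 0.33, 0.26) did not pass, nor did Clock at 0.07 ± 0.12 (0.89).

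The promoter of Ciart holds the E-box 3 times, the only motif of the 4 searched that it carries, and is shown for that reason together with those of Derl3 and Dusp1, called genes described below in which 2 different motifs lie close together. Each is 300 bases of RefSeq sequence on GRCm38.p6, 5′ to 3′ from 250 bases before the start of the gene, with matches in capitals. Motifs were sought on both strands in the promoters of 7249 of the tested genes, including 145 of the 184 called ones. They were the cAMP response element TGACGTCA, the E-box CACGTG, the D-box TTATGTAA or TTACGTAA, and the ER stress element, CCAAT and CCACG with 9 bases of any kind between them. The E-box was in 12.3% of all promoters and in 15.9% of those of called genes, the cAMP response element in 3.89% and 3.45%, the D-box in 0.731% and 1.38%, and the ER stress element in 0.152% and 0.69%. A match says only that the letters are present.
Ciart, chr3:95882179-95882478, minus strand, E-boxes starting at -116, -58 and -44: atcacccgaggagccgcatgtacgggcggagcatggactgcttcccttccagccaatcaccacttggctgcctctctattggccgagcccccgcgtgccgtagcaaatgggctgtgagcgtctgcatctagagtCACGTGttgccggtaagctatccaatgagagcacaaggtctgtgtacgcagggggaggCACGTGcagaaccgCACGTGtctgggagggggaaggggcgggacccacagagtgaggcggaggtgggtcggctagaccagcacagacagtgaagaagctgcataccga
Derl3, chr10:75893148-75893447, plus strand, E-box at -168 and ER stress element on the opposite strand at -156: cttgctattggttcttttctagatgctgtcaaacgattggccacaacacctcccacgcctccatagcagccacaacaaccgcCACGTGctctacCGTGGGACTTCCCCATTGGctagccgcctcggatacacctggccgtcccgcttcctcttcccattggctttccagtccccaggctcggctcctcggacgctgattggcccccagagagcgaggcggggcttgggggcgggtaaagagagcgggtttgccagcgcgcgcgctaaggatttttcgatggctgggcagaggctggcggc
Dusp1, chr17:26508423-26508722, minus strand, cAMP response element at -143 and E-box at -126: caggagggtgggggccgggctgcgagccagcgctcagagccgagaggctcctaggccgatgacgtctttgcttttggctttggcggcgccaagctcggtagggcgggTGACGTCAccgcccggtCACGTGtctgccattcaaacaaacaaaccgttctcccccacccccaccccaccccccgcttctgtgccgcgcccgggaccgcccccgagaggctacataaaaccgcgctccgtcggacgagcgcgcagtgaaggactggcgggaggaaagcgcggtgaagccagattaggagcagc

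WT on western diet stood below the other groups in 14 genes, among them the transcription factors Irx2 and Neurog3. Irx2, a homeobox factor of alpha cells, read 7.79, 7.75 and 7.71 for SHPKO on western diet, 6.87, 6.79 and 6.86 for WT on western diet, 7.51, 7.76 and 7.55 for SHPKO on chow and 7.65, 7.69 and 7.74 for WT on chow. The 3 other groups overlapped while WT on western diet was 1.71-fold lower, for an interaction of 1.00 ± 0.12 (adjusted p = 0.00048) that was 0.40 on a second probe. Neurog3, which starts endocrine differentiation, read 7.16, 6.74 and 6.95 in SHPKO on western diet, 6.08, 5.74 and 5.58 in WT on western diet, where it was lowest, 7.34, 7.15 and 7.10 in SHPKO on chow and 7.39, 7.02 and 6.80 in WT on chow. Its interaction of 1.02 ± 0.23 (adjusted p = 0.040) lost its call when any of 9 single arrays was left out. The lists that hold Irx2 and Neurog3 had calls in both directions. Of 8 tested genes listed for endocrine progenitors or dedifferentiation, 1 was called positive (Neurog3) and 1 negative (Sox4), with a median of -0.04. Of 13 tested markers of islet cells other than beta cells, 2 were called positive and 2 negative, with a median of 0.25.

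Derl3, which helps remove misfolded proteins from the endoplasmic reticulum and whose promoter is shown above, read 6.28, 6.41 and 6.14 for SHPKO on western diet, 5.77, 5.38 and 5.70 for WT on western diet, 6.48, 6.11 and 6.27 for SHPKO on chow and 6.82, 6.73 and 6.78 for WT on chow. The western diet thus went with less Derl3 in WT (-1.16) and with a difference of -0.01 in SHPKO, and the interaction was 1.15 ± 0.18 (adjusted p = 0.0027). It was the 1 called gene among 38 of the unfolded protein response, whose median interaction was 0.13. Of all genes 2.07% were called, so that count says little. Of 23 glucose-responsive, thioredoxin and antioxidant genes, 2 were called positive, Gpx3 and Hmox1, and 1 negative, against 1.49% and 0.586% of all genes. Neither Gpx3 nor Hmox1 kept its call in every fit without 1 array. Gpx3, a secreted glutathione peroxidase, was 1.52-fold below the nearest group in WT on western diet, with an interaction of 0.80 ± 0.16 that was lost without array 1 of SHPKO on western diet. Nupr1, a stress-induced chromatin protein, had one of 0.84 ± 0.13 on its only probe, whose values correlated at 0.942 over the 12 arrays with those of the Rab5a probe described next. Hmox1, heme oxygenase, was undetected in WT on western diet, and its interaction of 0.84 ± 0.18 (floored 0.42) lost its call when any of 6 single arrays was left out. Impact, a regulator of translation under amino acid shortage, had one of 0.82 ± 0.13, against 0.17 on a dimmer second probe.

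A set of 4 probes in this class moved nearly in step. The brightest probes of Rab5a, Zfp207, Hmgxb3 and Spata6 correlated at 0.982 to 0.996 with that of Rab5a over the 12 arrays, a likeness given as a description of arrays that share their groups. Probes of Ibsp, Rap2a and Igsf5, which are not among the called genes, also correlated with the Rab5a probe, at 0.979, 0.963 and 0.953. The brightest Rab5a probe read 11.87, 11.61 and 11.62 for SHPKO on western diet, 10.71, 10.26 and 10.10 for WT on western diet, 11.53, 11.38 and 11.32 for SHPKO on chow and 11.91, 11.81 and 10.997 for WT on chow. The interaction was 1.51 ± 0.30 for Rab5a, 1.38 ± 0.29 for Zfp207, 1.43 ± 0.29 for Hmgxb3 and 1.42 ± 0.25 for Spata6. Rab5a and Hmgxb3 each lost their call when any of 4 single arrays was left out, and Zfp207 when any of 7 was. With the mean over the probes of a gene, Rab5a, Zfp207 and Hmgxb3 lost it too, while Spata6 kept its call in each of these. Other probes of the same genes did not share this interaction, with -0.12 and 0.00 for Rab5a, -0.04 for Zfp207, -0.53 and -0.20 for Hmgxb3 and 0.07 for Spata6. The change therefore holds for these probes and is uncertain for the genes, and for Nupr1 no second probe was available to compare.

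WT on western diet stood above the other groups in 4 genes. Cdk5rap1, a mitochondrial tRNA-modifying enzyme, read 7.48, 7.46 and 7.58 for SHPKO on western diet, 8.28, 8.30 and 8.62 for WT on western diet, 7.49, 7.34 and 7.34 for SHPKO on chow and 7.13, 6.998 and 7.44 for WT on chow. The western diet level was 1.85-fold above the nearest group in WT alone, and all 3 probes gave the same interaction, at -1.09, -1.02 and -0.90. Sucnr1, the succinate receptor, was detected on all arrays of WT on western diet only, and its measured interaction of -0.96 ± 0.18 is not a reliable direction, being 0.22 floored. The call ended without background correction, at an offset of 50 and with the third arrays left out. Rgs16, a brake on G protein signals (-0.84 ± 0.19), and the tetraspanin Tspan8 (-0.60 ± 0.14) lost their calls when any of 9 and any of 10 single arrays were left out.

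SHPKO on chow stood apart in 7 genes. The largest difference belonged to 1810009J06Rik, which is outside the naming rule and was picked after its values were seen. It read 4.81, 4.76 and 4.85 in SHPKO on western diet, 4.45, 4.36 and 4.38 for WT on western diet, 8.28, 8.31 and 8.37 for SHPKO on chow, the 1 group where it was detected, and 4.56, 4.33 and 5.01 in WT on chow. It was at least 7.90-fold above each other group and its interaction was -3.28 ± 0.19 (adjusted p = 1.1e-06), or -3.02 floored. On chromosome 6 of GRCm38.p6 the next protein-coding genes on one side are Gm2663, 2210010C04Rik, Try4 and Try5, with trypsin genes among them. Such genes are close copies, and whether the probe of 1810009J06Rik reads others was not tested. The neighbour 2210010C04Rik had the opposite order of genotypes, at 6.37, 6.39 and 5.94 in SHPKO on chow against 10.37, 10.27 and 10.27 in WT on chow. Gdf10, a secreted growth factor of the BMP family, read 5.79, 5.50 and 5.55 for SHPKO on western diet, 6.19, 5.99 and 5.62 for WT on western diet, 7.19, 6.96 and 6.63 for SHPKO on chow and 5.40, 5.26 and 5.69 for WT on chow. Its interaction of -1.80 ± 0.24 (adjusted p = 0.0011) rests on SHPKO on chow, 1.99-fold above the nearest group, and the other 3 groups overlapped. The secreted matrix protein Reln had a smaller one of -0.77 ± 0.12. The imprinted noncoding RNA Meg3 (-0.83 ± 0.16) was undetected outside SHPKO on chow, with a floored interaction of -0.23. Its call was lost without background correction, at an offset of 50, with trended robust variances, with the third arrays left out and without array 2 of SHPKO on western diet. Elmod3 (-0.70 ± 0.16, floored -0.32), dim on all arrays, lost it when any of 9 single arrays was left out.

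Slc38a5 and Rsad2 were the 2 genes lowest in SHPKO on chow. Slc38a5, a glutamine transporter that alpha cells induce when they proliferate, read 8.96, 8.79 and 8.84 for SHPKO on western diet, 8.60, 8.53 and 8.58 for WT on western diet, 7.94, 8.0011 and 7.62 for SHPKO on chow and 9.11, 9.17 and 9.29 for WT on chow. No groups overlapped, and the western diet went with a rise of 1.02 in SHPKO and a difference of -0.62 in WT. The interaction was 1.64 ± 0.15 (adjusted p = 4.3e-05). Rsad2, the antiviral protein viperin, had an interaction of 0.71 ± 0.13. It was 1 of 3 positive calls among 36 interferon response genes, against 1.49% of all genes, with Ifi27l2a and Cxcl10, whose floored interaction was 0.45, and that list had a median of 0.17.

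WT on chow stood below the other groups in 17 genes, a class led by immediate early genes, which are switched on within minutes by calcium, cAMP and growth signals. Fos, a subunit of the AP-1 factor, read 9.38, 9.46 and 9.66 for SHPKO on western diet, 9.57, 9.66 and 9.70 for WT on western diet, 9.57, 9.58 and 9.89 for SHPKO on chow and 8.19, 8.45 and 8.15 for WT on chow. The 3 other groups overlapped and WT on chow was 2.36-fold lower, so the genotype difference of 1.41 on chow was -0.14 on western diet, an interaction of -1.55 ± 0.17 (adjusted p = 0.00016). Egr1, a zinc finger factor, had one of -1.19 ± 0.15 and Junb, a second AP-1 subunit, one of -1.04 ± 0.17. Rgs2, which damps signals of Gq-coupled receptors, read 8.41, 8.38 and 8.53 for SHPKO on western diet, 7.51, 7.62 and 7.93 for WT on western diet, 7.40, 7.61 and 7.39 for SHPKO on chow and 5.22, 5.66 and 5.20 for WT on chow. It was graded, with SHPKO on western diet highest and WT on chow 4.31-fold below the nearest group, and its log2 interaction of -1.36 ± 0.20 (-1.03 on a second probe) came out at 3.72 with the opposite sign on linear intensities.

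Of 22 immediate early genes tested, 7 had a negative called interaction and 0 a positive one, against a background of 0.586% negative calls, and in each of the 7 WT on chow stood lowest. The median over the 22 was -0.24. Their summed level was 8884 to 9708 for SHPKO on western diet, 8351 to 8841 for WT on western diet, 9105 to 9469 for SHPKO on chow and 5424 to 5680 for WT on chow. The sums of WT on chow thus lay far below the rest, and those of WT on western diet just below both SHPKO groups. The remaining 3 called members, the phosphatase Dusp1 (-0.62 ± 0.14), whose promoter is shown above, the neuronal factor Npas4 (-1.17 ± 0.27, floored -0.74) and the pseudokinase Trib1 (-1.15 ± 0.25, but -0.09 on a dimmer probe), each lost their call when any of 6 to 9 single arrays was left out. Fos, Egr1, Junb and Rgs2 kept it in each setting run on log2 values.

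Other genes also stood lowest in WT on chow. Pde5a, which breaks down cyclic GMP, read 8.14, 8.02 and 7.93 for SHPKO on western diet, 8.14, 8.25 and 7.64 for WT on western diet, 8.32, 8.33 and 8.04 for SHPKO on chow and 6.66, 6.71 and 6.29 for WT on chow. WT on chow was 2.74-fold below the nearest group and the other 3 overlapped, for an interaction of -1.65 ± 0.23 (adjusted p = 0.0012) and -0.53 on a dimmer second probe. Sox4, a factor of endocrine development, had an interaction of -1.14 ± 0.20, Gadd45b, a stress sensor, one of -1.18 ± 0.20, and Rgcc, a cell cycle regulator, one of -0.83 ± 0.10. Of 20 genes on the list of cAMP and G protein signal feedback, 3 were called, all negative, against 0.586% of all genes. The median of the list was -0.04. The 3 were Pde5a and Rgs2, lowest in WT on chow, and Rgs16, highest in WT on western diet. Rgs2 is counted among the immediate early genes too, and the call of Rgs16 was unstable as given above. Atp5b, a subunit of mitochondrial ATP synthase, was 1.54-fold lower in WT on chow than in the nearest group, with an interaction of -0.66 ± 0.12.

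WT on chow stood above the others in 12 genes. Gal, the neuropeptide galanin that restrains insulin release, gave the clearest case, at 4.64, 4.87 and 4.83 for SHPKO on western diet, 5.90, 5.85 and 5.72 for WT on western diet, 4.98, 4.80 and 4.68 for SHPKO on chow and 8.74, 8.79 and 8.83 for WT on chow. It was undetected in both SHPKO groups, and in WT it was lower by 2.96 on western diet than on chow. SHPKO was below WT on both diets, with differences at the floor of -0.55 on western diet and -3.57 on chow, and the interaction was 2.93 ± 0.14 (adjusted p = 2.3e-07), or 3.02 floored. Pbk, a mitotic kinase, read 4.73, 5.40 and 4.97 for SHPKO on western diet, 4.61, 4.41 and 5.25 for WT on western diet, 5.45, 5.58 and 5.29 for SHPKO on chow and 6.73, 6.89 and 7.02 for WT on chow, with an interaction of 1.72 ± 0.29 (adjusted p = 0.0061), or 1.16 floored. Cdca3 (1.11 ± 0.22), Anln (0.93 ± 0.13), Prc1 (0.74 ± 0.16) and Cdt1 (0.81 ± 0.18), which act in mitotic entry, cytokinesis and DNA licensing, were also highest in WT on chow. Anln was undetected in the other 3 groups and its floored interaction was 0.22. Without background correction Cdca3, Anln, Prc1 and Cdt1 lost their calls, and Prc1 and Cdt1 lost them when any of 8 and any of 10 single arrays were left out.

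Of 20 genes of S phase and mitosis tested, 6 had a positive called interaction and 0 a negative one, against 1.49% and 0.586% of all genes, and 3 of the 6 called ones had no single group apart. Cenpa, the centromeric histone, read 6.98, 6.93 and 6.86 for SHPKO on western diet, 6.07, 5.91 and 6.33 for WT on western diet, 6.44, 6.65 and 6.40 for SHPKO on chow and 7.26, 7.14 and 7.35 for WT on chow. SHPKO was above WT on western diet by 0.82 and below WT on chow by -0.76, both called, with an interaction of 1.58 ± 0.16 (adjusted p = 0.00011). Mcm5, a subunit of the replicative helicase, had the same order of groups, with an interaction of 1.14 ± 0.15, and so did Aurka, a spindle kinase (1.37 ± 0.24, floored 0.40). The median of the list was 0.47, or 0.41 with undetected groups at their bound, and without background correction 3 of its genes were called. The summed level of the list did not separate the groups, at 9411 to 11310 for SHPKO on western diet, 7605 to 9547 for WT on western diet, 10200 to 11290 for SHPKO on chow and 7251 to 10420 for WT on chow. The B cell and T cell markers were raised in SHPKO on western diet as given above, and their part in this list was not tested.

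**Figure D4:**
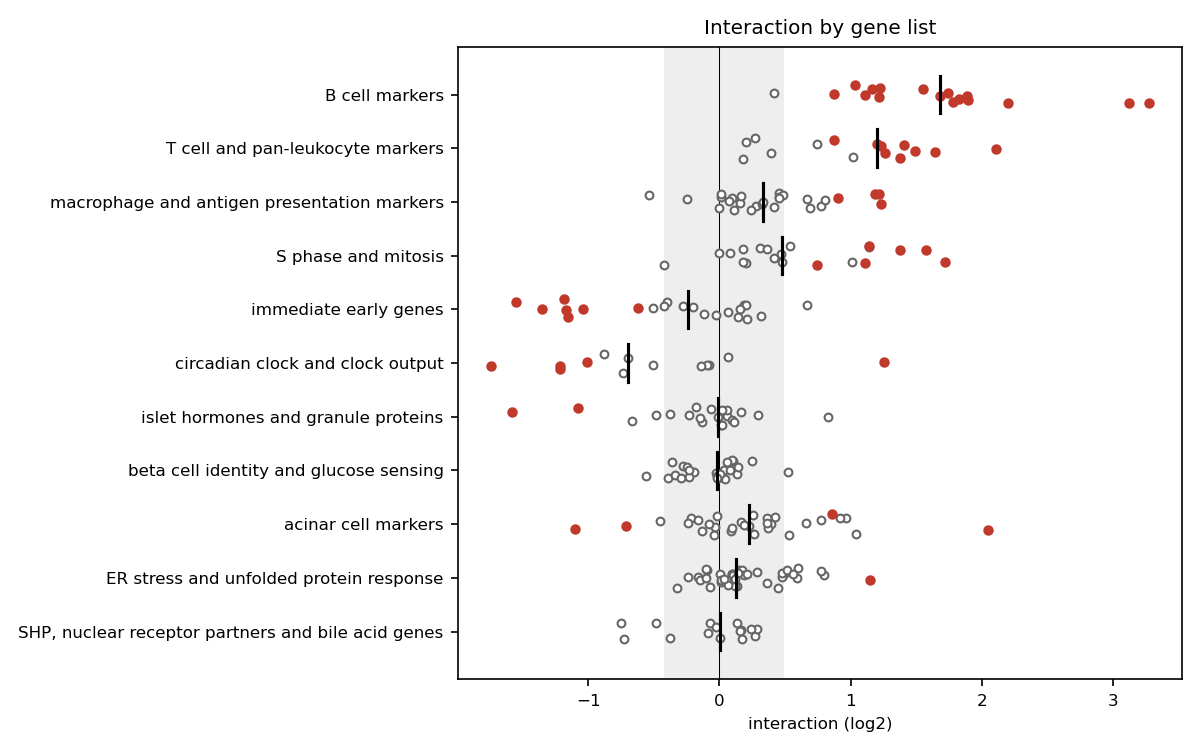
Interaction (log2) of each tested member of 11 gene lists, filled where called and open where not; the short vertical line is the median of the list and the grey band runs from the 5th to the 95th percentile of all 8875 genes. The B cell and T cell lists lie to the right, 7 immediate early genes and 4 clock genes are called with negative values, and the beta cell and SHP partner lists have no called member.

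Genes whose genotype difference was called on both diets with opposite signs do not depend on the log scale, and there were 8, of which 4 had an undetected group. The 8 were Cenpa, Uhrf1, Cd52, Cxcl10, Ifi27l2a, Ghrl, Slc15a2 and Vip. With undetected groups at the floor the signs of all 8 were the same. A detected group lies above the floor almost by construction, so the kept signs say little. The floored genotype differences on western diet and on chow were 0.20 and -0.25 for Cxcl10 and 0.39 and -0.95 for Uhrf1. They were -0.98 and 0.35 for Slc15a2 and -0.70 and 0.95 for Vip. Uhrf1, which maintains DNA methylation through replication, read 5.48, 5.82 and 5.82 for SHPKO on western diet, 4.52, 4.70 and 5.07 for WT on western diet, 4.94, 4.73 and 4.85 for SHPKO on chow and 6.05, 6.22 and 6.24 for WT on chow. SHPKO on western diet and WT on chow were detected and did not overlap the undetected other pair, and the interaction was 2.28 ± 0.20 (adjusted p = 3.1e-05), or 1.34 floored. Cxcl10, a chemokine induced by interferon, had the same pair of groups above the other pair, at 5.50, 5.61 and 5.42 for SHPKO on western diet, 4.53, 4.73 and 4.66 for WT on western diet, 4.48, 4.63 and 4.79 for SHPKO on chow and 5.43, 5.74 and 5.24 for WT on chow. Among the 51 called genes with no single group apart, SHPKO on western diet and WT on chow lay together above the other pair in 18 and below it in 11. Over all 8875 genes tested, with or without a group apart, 1080 and 980 had these orders of means, so the bases are unlike. A called interaction also favours such orders by itself.

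Cd52 and Ifi27l2a combined a diet difference with a crossing of genotypes. Cd52, a surface antigen of lymphocytes, read 9.24, 9.09 and 8.99 for SHPKO on western diet, 8.43, 8.18 and 8.02 for WT on western diet, 7.19, 7.17 and 6.48 for SHPKO on chow and 7.91, 7.84 and 7.63 for WT on chow, for an interaction of 1.74 ± 0.25. The diet difference was 2.16 in SHPKO and 0.42 in WT. Ifi27l2a, an interferon-induced mitochondrial protein, had an interaction of 1.69 ± 0.19. Slc15a2, a peptide transporter, crossed in the opposite sense, at 5.04, 5.09 and 5.60 for SHPKO on western diet, 6.25, 6.09 and 6.32 for WT on western diet, 5.96, 5.55 and 5.56 for SHPKO on chow and 4.51, 5.01 and 5.13 for WT on chow, an interaction of -1.78 ± 0.26 (adjusted p = 0.0019), or -1.32 floored. Without array 1 of WT on chow 5 of the 8 crossings were called, and without background correction 1 was.

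**Figure D5:**
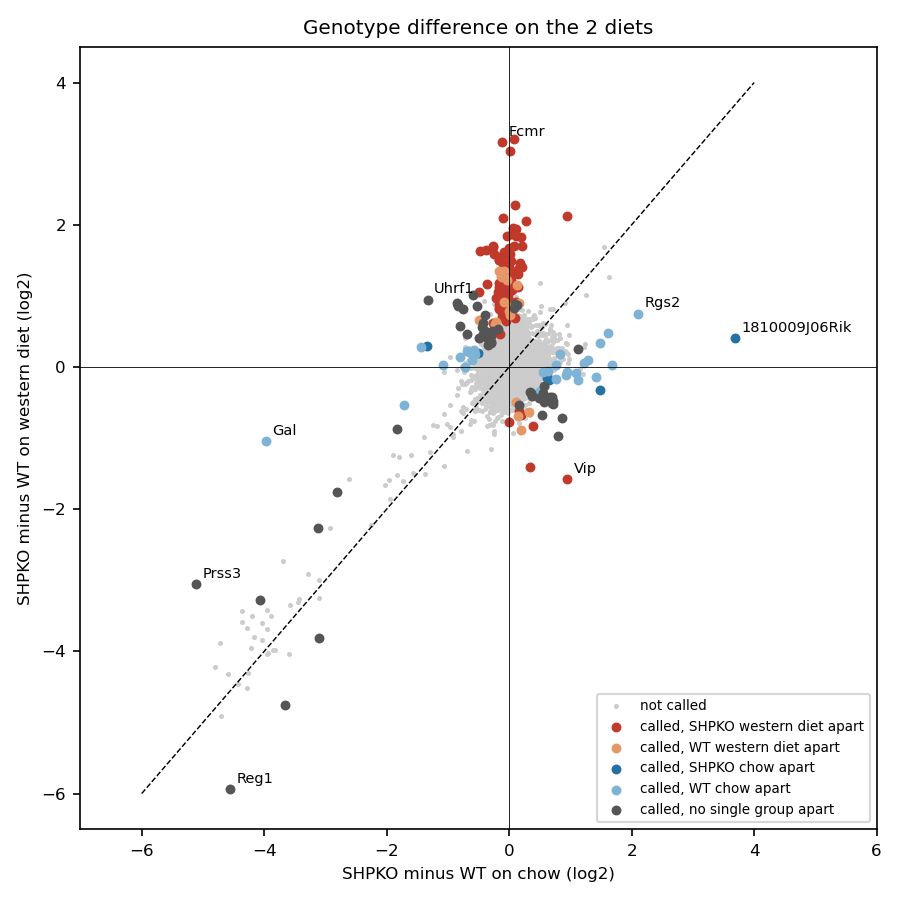
SHPKO minus WT difference (log2) on chow (horizontal) and on western diet (vertical) for each of the 8875 genes tested; called genes are coloured by the group that stands apart, and the dashed line marks equal differences on both diets. Fcmr lies high on the vertical axis, 1810009J06Rik far out on the horizontal one, Uhrf1 and Vip in the areas of opposite sign, and Reg1 and Prss3 off the line in the area where both differences are negative.

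Of the 21 hormone and granule genes tested, 2 were called, Ppy and Ghrl, both negative, against 0.586% negative calls over all genes. At an unadjusted p below 0.05 in limma there were 6, and the median of the list was -0.01. Ppy, pancreatic polypeptide, read 13.86, 13.82 and 13.80 for SHPKO on western diet, 14.27, 14.30 and 14.41 for WT on western diet, 13.75, 13.80 and 13.58 for SHPKO on chow and 13.12, 12.98 and 13.31 for WT on chow. The SHPKO groups touched at 13.80 while the WT groups lay far apart on either side of them, the diet difference being 1.19 in WT and 0.12 in SHPKO (interaction -1.07 ± 0.14, adjusted p = 0.00082). Ghrl, the hormone of epsilon cells, read 5.83, 5.61 and 5.78 for SHPKO on western diet, 6.66, 6.34 and 6.40 for WT on western diet, 6.58, 6.44 and 5.86 for SHPKO on chow and 5.09, 5.58 and 5.64 for WT on chow, with an interaction of -1.58 ± 0.26 and -0.83 on a second probe. The main hormones had interactions near 0, at -0.01 ± 0.12 for Ins2, 0.02 ± 0.17 for Gcg and 0.06 ± 0.13 for Sst. Their probes lie close to the top of the signal range, where an array resolves small differences poorly. Iapp, the beta cell peptide amylin (-0.18 ± 0.32), peptide YY (Pyy, -0.23 ± 0.11) and the granule protein chromogranin A (Chga, -0.07 ± 0.12) did not pass either.

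None of the 25 genes of beta cell identity and glucose sensing was called, where 2.07% of all genes were, so that the count says little. At an unadjusted p below 0.05 there were 5, against 1126 of all 8875 genes, and their median was -0.01. Txnip, the thioredoxin-binding protein that glucose induces, did pass. It read 12.73, 12.67 and 12.65 for SHPKO on western diet, 12.40, 12.46 and 12.42 for WT on western diet, 13.01, 13.11 and 13.09 for SHPKO on chow and 11.93, 11.92 and 12.01 for WT on chow. No groups overlapped, the western diet level being above chow in WT (0.48) and below it in SHPKO (-0.38), with an interaction of -0.86 ± 0.11 (adjusted p = 0.00060) on 1 probe and -0.88 on the other. Scd1, stearoyl-CoA desaturase of lipid synthesis, was highest in SHPKO on western diet at 7.12, 7.14 and 7.14, against 6.36, 5.91 and 6.11 for WT on western diet, 6.07, 5.96 and 5.88 for SHPKO on chow and 6.60, 6.23 and 6.84 in WT on chow (interaction 1.60 ± 0.21). It was the 1 called gene among 23 of cholesterol and fatty acid synthesis, against 2.07% of all genes. Of the 15 genes tested from the list of SHP partners among nuclear receptors and of bile acid genes, 0 were called by limma (2 at an unadjusted p below 0.05), and 0 of 18 heat shock chaperones were (1 at that level). With 2.07% of all genes called, the counts of these lists say little.

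In exocrine genes the genotype difference was large on both diets, and the interaction is what remained of it. The summed level of 31 acinar markers was 36850 to 41150 for SHPKO on western diet, 234700 to 256900 for WT on western diet, 38090 to 42990 for SHPKO on chow and 299800 to 314100 for WT on chow. Of these 31, 4 were called for the interaction, 2 in each direction, against 1.49% positive and 0.586% negative calls over all genes. Reg1, a secreted protein of acinar cells, read 6.54, 6.43 and 6.29 for SHPKO on western diet, 12.38, 12.43 and 12.25 for WT on western diet, 9.15, 9.17 and 8.99 for SHPKO on chow and 13.65, 13.79 and 13.54 for WT on chow. SHPKO was below WT by -5.93 on western diet and -4.56 on chow, so the log2 interaction was -1.38 ± 0.14, while on linear intensities it was 7293 with the opposite sign. The trypsin genes Try10 (-1.10 ± 0.14 on log2, 12530 on linear intensities) and Try5 (-0.71 ± 0.16, 6223) changed sign between the scales in the same way. Try10 read 14.64, 14.60 and 14.60 in WT on chow, close to the top of the signal range. How far this limits its interaction was not tested. Try5 lost its call when any of 9 single arrays was left out, and also without background correction. Prss3, a further trypsin, read 5.39, 5.34 and 5.07 for SHPKO on western diet, 8.24, 8.41 and 8.31 for WT on western diet, 6.05, 5.51 and 5.32 for SHPKO on chow and 10.86, 10.69 and 10.66 for WT on chow, with a log2 interaction of 2.05 ± 0.23 (adjusted p = 0.00021). Trypsin genes are close copies whose probes can read one another, and the SHPKO levels of Prss3 lie near the detection limit. Pdia2, a pancreatic disulfide isomerase (0.86 ± 0.20), lost its call when any of 10 single arrays was left out.

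The gene names rest on probes with 1 name, and 1971 further probes that passed the filter have none here. Of these, 79 were called for the interaction, 42 positive and 37 negative, and SHPKO on western diet stood highest in 32 and WT on chow lowest in 17.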

How the data were processed

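The submitters' processing notes name BeadStudio, without a version. Of 2 deposited tables, the raw one gives each probe a linear intensity on each array. The detection p-value deposited beside it sets the probe against the negative controls of that array. The second deposited table holds the authors' normalized intensity values and served as an alternative. The 12 raw columns were assigned by their names. They were background-corrected and quantile-normalized with neqc (offset 16) in limma 3.58.1 on R 4.3.3 and taken to log2. Probes with a detection p-value below 0.01 on every array of any 1 group were kept, 14756 of 45281, and the brightest kept probe with a single gene name stood for a gene. Names came from the platform annotation (34885 probes with 1 name, 18 with several, 10378 with none) and were updated to GRCm38.p6. No genome build is given in the sources used here for the probes. A linear model of 4 group means with moderated variances (prior degrees of freedom 4.42) was fitted to 8875 genes. A gene undetected in a group enters a fold at the lowest detected signal of each array (5.07 to 5.48, log2), which gives "at least N-fold". The number of arrays limits the precision. Arrays within a group correlated at 0.982 to 0.994 and between groups at 0.950 to 0.983, with a median SD per gene of 0.115 to 0.144. Each array detected between 13821 and 16101 probes. The fit was tested on simulated data.

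The members, gene lists and tests were chosen with earlier results of these data known. Of 973 entries in 33 lists, 887 matched a name and 566 were tested. The rule names Ins2, Gcg, Sst, Ppy and Nr0b2, the 5 called genes with the largest gap in each class, the 6 largest opposite genotype differences and up to 2 called genes per direction of each list. Other genes were named after their values were seen. The alternatives varied the background correction, normalization, filter, probe choice, variance model, fold, rule for standing apart and arrays used.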

Additional observations from a re-analysis of the deposited data

Results flagged for a closer look

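Each gene named in the report whose interaction was called is listed here, because the interaction is itself the test that the effect of genotype differs between the diets. SHPKO on western diet stood above the other groups in genes with log2 interactions of 3.27 (Fcmr), 3.12 (Cd79b), 3.01 (Mup2), 2.2 (Ccr6), 2.17 (Hvcn1), 2.11 (Cytip), 1.89 (Cd22), 1.88 (Ly6d), 1.83 (H2-Ob), 1.83 (Stk17b), 1.78 (Mzb1), 1.74 (Slpi), 1.68 (Arhgdib), 1.68 (Blk), 1.64 (Coro1a), 1.41 (Cd3d), 1.26 (Cd2), 1.23 (Cd83), 1.22 (H2-DMb2), 1.22 (Serpina3n), 1.18 (Lgals3), 1.17 (Cxcl13), 0.904 (Lyz1), 0.872 (Laptm5) and 0.871 (Cd72). SHPKO on western diet stood below the other groups in genes with log2 interactions of -2.52 (Vip), -1.74 (Dbp), -1.22 (Nr1d1), -0.873 (Sult1c2), -0.789 (Gng7) and -0.781 (Car11). WT on western diet stood above the other groups in genes with log2 interactions of -1.09 (Cdk5rap1), -0.963 (Sucnr1), -0.837 (Rgs16) and -0.603 (Tspan8). WT on western diet stood below the other groups in genes with log2 interactions of 1.51 (Rab5a), 1.43 (Hmgxb3), 1.42 (Spata6), 1.38 (Zfp207), 1.26 (Arntl), 1.15 (Derl3), 1.02 (Neurog3), 0.997 (Irx2), 0.839 (Nupr1), 0.836 (Hmox1), 0.82 (Impact), 0.797 (Gpx3), 0.74 (Angptl7) and 0.726 (Myo1e). SHPKO on chow stood above the other groups in genes with log2 interactions of -3.28 (1810009J06Rik), -1.8 (Gdf10), -0.83 (Meg3), -0.77 (Reln) and -0.703 (Elmod3). SHPKO on chow stood below the other groups in genes with log2 interactions of 1.64 (Slc38a5) and 0.711 (Rsad2). WT on chow stood above the other groups in genes with log2 interactions of 2.93 (Gal), 1.72 (Pbk), 1.18 (Olfr1490), 1.11 (Cdca3), 0.933 (Anln), 0.81 (Cdt1), 0.741 (Prc1) and 0.723 (P2ry14). WT on chow stood below the other groups in genes with log2 interactions of -1.65 (Pde5a), -1.55 (Fos), -1.36 (Rgs2), -1.31 (Cars), -1.18 (Egr1), -1.18 (Gadd45b), -1.17 (Npas4), -1.15 (Trib1), -1.14 (Sox4), -1.04 (Junb), -1.01 (Cry2), -0.833 (Rgcc), -0.656 (Atp5b) and -0.618 (Dusp1). Genes without a single group apart had interactions, on the log2 scale, of 2.28 (Uhrf1), 2.05 (Prss3), -1.78 (Slc15a2), 1.74 (Cd52), 1.71 (Cxcl10), 1.69 (Ifi27l2a), 1.6 (Scd1), 1.58 (Cenpa), -1.58 (Ghrl), 1.38 (Ccl5), -1.38 (Reg1), 1.37 (Aurka), -1.23 (Barx2), -1.21 (Ciart), -1.2 (Ces1d), 1.14 (Mcm5), -1.1 (Try10), -1.08 (Ppy), 1.05 (Reg3d), -0.857 (Txnip), 0.856 (Pdia2), -0.831 (Nfkbiz), 0.793 (2210010C04Rik), 0.789 (Tmprss2), 0.756 (Ppp1r3c), -0.714 (Try5) and -0.689 (Mt1). Outside the named genes, 79 probes without a single gene name were called for the interaction, and they enter no other count.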

How the results depend on the processing

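The direction of the interaction on log2 values held in every setting for 104 of the 105 called genes described, and 78 of the 184 called genes kept their call in each of the 11 other settings that tested them and all 12 fits without 1 array. Elmod3 reversed to 0.04341 without a filter, 0.2863 with the third array of each group left out and 0.1641 without array 3 of WT on chow, and its values without 1 array ranged from -0.8276 to 0.1641. On linear intensities Reg1 (7293), Rgs2 (3.72), Try10 (12530) and Try5 (6223) reversed. Against 184 called genes (132 positive, 52 negative) there were 80 (49 and 31) with detection required on all 12 arrays, 308 with every kept probe (111 negative), 114 (86 and 28) at 2-fold, and 84 positive ones without background correction. With SHPKO on western diet apart there were 79 genes, but 51 without background correction, 17 with detection on all 12 arrays and 51 without the leukocyte lists. With WT on western diet apart there were 18, but 32 by distance from the mean of the others. With SHPKO on chow apart there were 7, but 3 with detection on all arrays, 3 at a gap of 2 times the range and 13 by distance from the mean. With WT on chow apart there were 29, but 18 with detection on all arrays and 44 by distance from the mean. Opposite genotype differences were called in 8 genes, but in 1 without background correction, 2 at an offset of 50 and 2 with detection on all arrays. Without 1 array the counts ranged over 149 to 188 called, 110 to 137 positive, 36 to 59 negative, 70 to 80 for SHPKO on western diet, 11 to 23 for WT on western diet, 5 to 11 for SHPKO on chow, 18 to 30 for WT on chow and 5 to 9 for opposite differences. The lowest of 149 was without array 1 of SHPKO on western diet. Where fewer genes could be called by construction (stricter detection, a higher fold, lists left out) that is the difference, and otherwise the cause was not tested. Leaving out the third arrays and the leukocyte lists was chosen after seeing the data.

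With the replicate number as a block 238 genes were called, 181 of them shared with the 184, and Pdia2 alone of the genes described lost its call. Same-numbered arrays deviated together at correlations of 0.0842 to 0.421 for number 1, -0.035 to 0.147 for number 2 and 0.154 to 0.539 for number 3, and 10 of 12 arrays correlated best with their own number, a hint from the data and not from the design. The numbers are therefore not taken as pairs.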

Other observations

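A few called genes outside the classes and lists above, most of them named after their values were seen, had diet differences of unequal size in the genotypes. Ces1d, a carboxylesterase, read 5.19, 5.29 and 4.89 for SHPKO on western diet, 5.51, 5.55 and 5.75 for WT on western diet, 7.46, 7.52 and 7.13 for SHPKO on chow and 6.68, 6.62 and 6.69 for WT on chow. The fall on western diet was -2.25 in SHPKO and -1.06 in WT, and the interaction was -1.20 ± 0.18 (limma adjusted p = 0.0023). Nfkbiz, a nuclear regulator of NF-kB targets, read 9.21, 9.19 and 9.32 for SHPKO on western diet, 9.51, 9.43 and 9.56 for WT on western diet, 8.76, 8.90 and 8.80 for SHPKO on chow and 8.14, 8.27 and 8.33 for WT on chow. Both SHPKO groups lay between the WT groups, and its interaction was -0.83 ± 0.12. Ppp1r3c, which directs a phosphatase to glycogen, was lowest in WT on western diet and had an interaction of 0.76 ± 0.11. The homeobox gene Barx2 had one of -1.23 ± 0.24, a call that ended without background correction, without array 2 of SHPKO on chow and with the third array of each group left out.

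Hemoglobin (Hbb-bs) had a diet difference of -1.54 for SHPKO and -2.08 for WT, and its interaction of 0.54 ± 0.14 did not pass (adjusted p = 0.084). Of 6 red cell markers, 0 were called for the interaction (3 at an unadjusted p below 0.05 in limma). Of all genes 2.07% were called, so that count says little.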
